A study of Homo sapiens with 28 samples.

Results

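H3K27me3, the trimethylation of lysine 27 of histone H3, was compared between the bone marrow of 5 DKOITD mice and 3 WT mice. All 8 mouse libraries made with the H3K27me3 antibody in the C57BL/6 strain were taken, out of 28 libraries in the series. WT mice were Ezh2(fl/fl) and Runx1(fl/fl), with Rag1(+/+) and Flt3(+/+), and their marrow had been enriched for cells that express Kit, the stem cell factor receptor, on CD117 beads. DKOITD mice were also Ezh2(fl/fl) and Runx1(fl/fl), with Rag1(Cre/+) and with Flt3(ITD/+), and their marrow was used whole. Both groups thus carry floxed Ezh2 and Runx1 alleles, and only DKOITD mice carry the Cre, driven from the Rag1 locus that is active in early lymphoid cells, and the internal tandem duplication of Flt3, an activated form of a progenitor receptor. The series title concerns Ezh2 and Runx1 mutations in leukaemia of early thymic progenitors. The labels name the mice DKOITD48, DKOITD52, DKOITD53e, DKOITD83 and DKOITD185, and give no age and no measure of leukaemia for any mouse. Genotype and cell preparation differ together in every comparison and cannot be told apart. Nor can fewer cells of a type and less of the mark per cell, since each library comes from mixed marrow cells.

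H3K27me3 is written by the Polycomb repressive complex PRC2, whose catalytic subunit is EZH2 or its paralog EZH1. It is bound by CBX proteins of the second Polycomb complex, PRC1, and removed by the demethylases KDM6A and KDM6B. In blood cells it covers the silent genes of other lineages, above all the homeobox and other developmental transcription factors, and it cannot sit on the same histone tail as H3K27ac, the acetylation of active promoters and enhancers. In mouse and human leukaemias PRC2 genes are recurrently lost or mutated, and early T-cell precursor leukaemia is one of the diseases in which this is known.

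The 3 WT libraries held 2766339 to 3994483 fragments and the 5 DKOITD libraries 3343831 to 6411696, after the authors removed duplicates. Peaks held an estimated 10.8% to 24.3% of the fragments in WT, worked out from the fragment coverage and length of the autosomal peaks. The share was 25.7% in DKOITD52 and 26.7% in DKOITD185, but 7.22% in DKOITD48, 5.24% in DKOITD83 and 3.71% in DKOITD53e. Depth did not follow this order, since DKOITD53e had 5492339 fragments and DKOITD48 the fewest of its group. H3K27ac of the same mice lay at the leukocyte genes Ptprc, Cd44 and Spi1 in all 8. Progenitor markers did not share a direction: it lay at Kit in 3 of 3 WT mice and 0 of 5 DKOITD, at Flt3 in 2 and 5, at Meis1 in 1 and 2 and at Cd34 in 0 and 1. Among granulocyte and monocyte markers it lay at Mpo in 3 and 1, S100a8 in 3 and 0, Itgam in 3 and 2, Elane in 1 and 0 and Csf1r in 1 and 3. None of the T-lineage markers Cd3e, Lck, Bcl11b and Tcf7 had H3K27ac in any mouse, and Cxcl12, Col1a1, Pecam1 and Cdh5 of stroma and endothelium had none either. Of 4 dendritic cell markers, Batf3 had it in 0 of 3 WT mice and 5 of 5 DKOITD, Itgax in 0 and 2, and Zbtb46 and Siglech in none. The part of such cell types in the results was not tested.

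How much of the genome carried the mark was asked first. H3K27me3 covered 25.9, 13.5 and 20.9 Mb of chromosomes 1 to 19 in WT1, WT2 and WT3. Among DKOITD mice the length was 40.1 Mb for DKOITD185 and 30.03 Mb for DKOITD52, and only 5.17 Mb in DKOITD48, 5.17 Mb in DKOITD83 and 3.16 Mb in DKOITD53e. The first pair lay above every WT mouse and the other 3 below every WT mouse, so the groups overlapped in full. The means were 20.1 Mb ± 6.21 (SD, n = 3) and 16.7 Mb ± 17.1 (SD, n = 5), a difference of -3.39 Mb that was smaller than the spread between mice (two-sided exact permutation test over the 56 assignments of the mice, p = 0.75, where the smallest possible p is 0.0357). The order of the DKOITD mice by territory was also their order by fragments in peaks. The estimate of fragments in peaks uses the lengths of the same peaks, so these orders are not independent. The part of enrichment in the result was not tested.

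**Figure D1:**
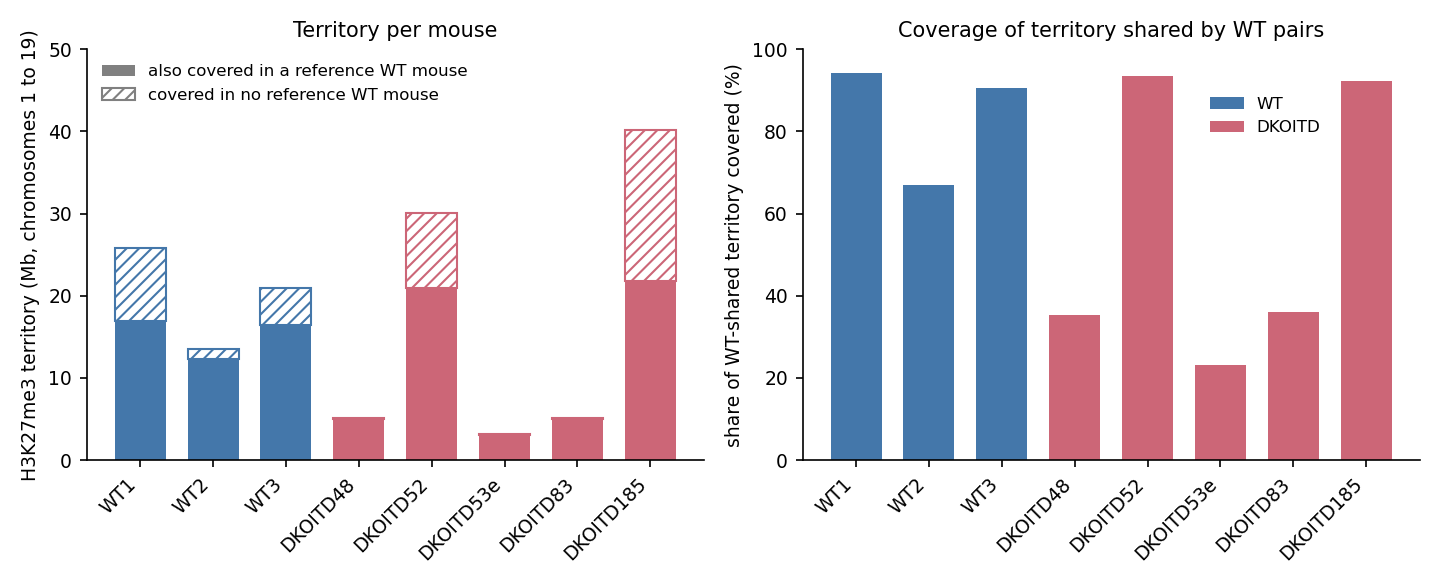
H3K27me3 territory in Mb of chromosomes 1 to 19 per mouse (left), split into bases also covered in a WT mouse (filled) and in none (hatched); WT mice are set against the other WT mice and DKOITD mice against all 3. The right panel gives the percent of the territory shared by pairs of WT mice that each mouse covers: 92.2% and 93.6% in DKOITD185 and DKOITD52, and 23.2% to 36.0% in the other 3 DKOITD mice.

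Domain length, taken as the length of each merged peak, did not separate the groups. The length-weighted median, the length at which 50% of a mouse's territory lies in domains at least as long, was 3.48, 2.96 and 3.49 kb in the WT mice. It was 4.21 kb in DKOITD52, 3.70 kb in DKOITD185, 3.28 kb in DKOITD48, 2.88 kb in DKOITD53e and 2.61 kb in DKOITD83. The group means were 3.31 kb ± 0.303 (SD, n = 3) and 3.34 kb ± 0.640 (SD, n = 5, exact permutation p = 1). Domains of 5 kb or more made up 31.8% ± 3.63 (SD, n = 3) of WT and 35.9% ± 6.27 (SD, n = 5) of DKOITD territory (exact permutation p = 0.393). With only the peaks of −log10 q of at least 5, that share was 52.5% and 70.5% and the length-weighted median 5.16 and 8.07 kb, both at the smallest possible exact permutation p of 0.0357, on 95 to 813 peaks in WT and 184 to 2004 in DKOITD libraries. The number of domains of 10 kb or more was 92 to 217 in WT, 348 in DKOITD52, 446 in DKOITD185, 60 in DKOITD48, 43 in DKOITD83 and 29 in DKOITD53e. Over 14 such measures of extent the smallest unadjusted p was 0.214, and every Benjamini-Hochberg adjusted p was 1.

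Territory in the DKOITD mice of small extent was nested in that of the other mice. DKOITD48, DKOITD53e and DKOITD83 had 98.3% to 98.7% of their covered bases inside those of DKOITD52 or DKOITD185, and 96.3%, 98.0% and 97.3% inside the joint territory of the 3 WT mice. Bases covered in all 5 DKOITD mice came to 2.52 Mb, of which 95.8% were covered in all 3 WT mice too. Conversely, the 3 WT mice shared 10.6 Mb, and only 1.88% of it was covered in no DKOITD mouse. Territory covered in every DKOITD mouse and no WT mouse came to 0.00498 Mb.

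Which part of the shared WT territory was held depended on the length of the domain. Domains shared by pairs of WT mice were split into 4 classes of length. Of the bases in those of 10 kb or more, DKOITD48 covered 76.2%, DKOITD83 71.5% and DKOITD53e 59.5%. Of those under 1 kb the same mice covered 5.44%, 6.14% and 1.94%. DKOITD52 went from 99.3% to 76.0% and DKOITD185 from 99.5% to 74.2%, close to the 98.8% to 82.1% of WT1. WT2, the WT mouse with the smallest territory, went from 85.2% to 26.8%. The decline with shorter domains was thus present in all 8 mice.

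**Figure D2:**
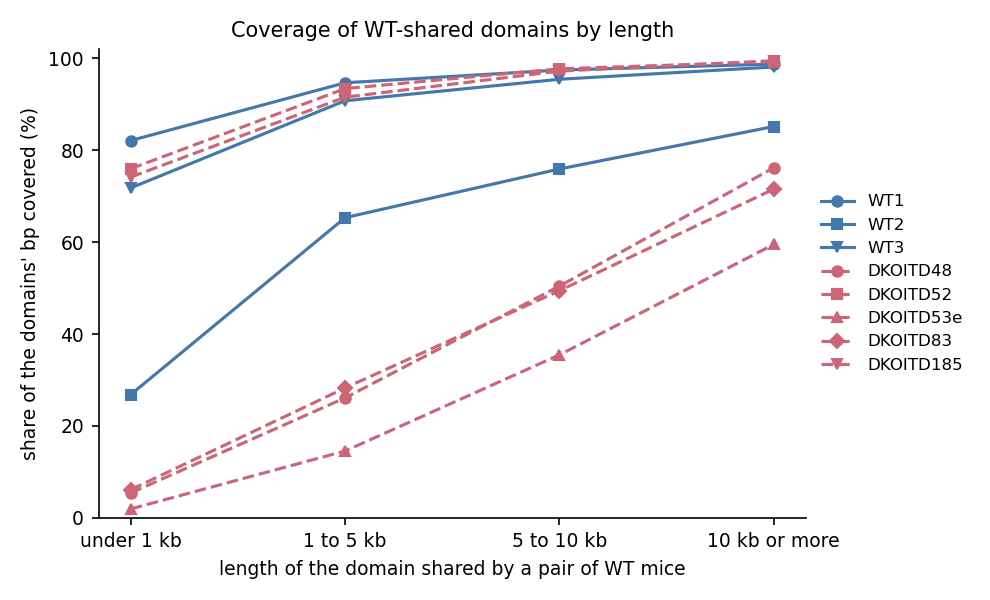
Percent of the bases of domains shared by pairs of WT mice that each mouse covers, by the length of the shared domain (4 classes); solid lines are WT and dashed lines DKOITD mice. DKOITD52 and DKOITD185 run with WT1 and WT3, WT2 lies lower, and DKOITD48, DKOITD83 and DKOITD53e lie below it in every class.

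DKOITD52 and DKOITD185 carried H3K27me3 over bases that no WT mouse covered. These came to 9.10 Mb or 30.3% of the territory of DKOITD52, and 18.4 Mb or 45.8% in DKOITD185. WT1, set against the other WT mice, had 34.6% outside them, WT2 8.96% and WT3 21.4%, so the share in DKOITD52 lay within the range of WT mice, each of which has 1 reference mouse fewer. Of the bases outside WT, 36.6% in DKOITD52 and 29.5% in DKOITD185 lay within 5 kb of an end of a protein-coding gene, against 66.4% and 64.6% of those inside. The domains that touched no WT territory were short, with medians of 0.441 and 0.470 kb, and 1 of 7087 in DKOITD52 and 3 of 16283 in DKOITD185 reached 10 kb. Both traits were present in WT1, WT2 and WT3 set against the other WT mice. Near gene ends lay 41.5%, 40.0% and 46.7% of their outside bases and 69.8%, 72.3% and 70.0% of those inside. Their domains that touched no territory of the other WT mice had medians of 0.423, 0.317 and 0.380 kb. DKOITD52 and DKOITD185 had 4.45 Mb of the bases outside WT in common, 48.9% of those of DKOITD52 and 24.2% of those of DKOITD185. H3K27ac of WT mice covered 1.93% and 1.03% of the bases outside WT and 1.44% and 1.25% of those inside. In DKOITD48, DKOITD53e and DKOITD83, with at most 0.192 Mb outside WT, the shares were 14.8%, 11.7% and 8.16% outside and 2.47%, 3.02% and 2.28% inside. Within each mouse, 1.03% to 1.15% of the H3K27me3 territory of WT and 0.776% to 1.97% of that of DKOITD lay under that mouse's own H3K27ac peaks.

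Genes were compared by whether H3K27me3 lay at their ends. A protein-coding gene was called marked in a mouse when at least 200 bp were covered within 1 kb of the better-covered end, since the annotation gave no strand. Of 20665 autosomal genes, 4230, 3302 and 4038 were marked in the WT mice. The numbers were 4330 in DKOITD185, 4235 in DKOITD52, 1616 in DKOITD83, 1445 in DKOITD48 and 998 in DKOITD53e. DKOITD52 and DKOITD185 thus had about the gene count of WT1 on a larger territory. Of the 3091 genes marked in all 3 WT mice, 97.2% were marked in DKOITD52 and 94.2% in DKOITD185, against 49.98%, 44.4% and 31.6% in DKOITD83, DKOITD48 and DKOITD53e.

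Retention of the mark followed its width in WT marrow. Of the 3091 genes, 869 were marked in all 5 DKOITD mice, 379 in 4, 525 in 3, 1121 in 2, 132 in 1 and 65 in none. In 1119 of the 1121 the pair was DKOITD52 and DKOITD185. Covered length was measured in kb within 5 kb of either gene end, a window of up to about 20 kb. Its median in WT was 5.61 kb over the 869 genes, and 3.73, 2.98, 2.24, 1.69 and 1.49 kb over the next groups down to the 65. The share of genes with H3K27ac in at least 1 DKOITD mouse ran the other way, from 10.9% of the 869 to 14.5%, 16%, 24.6%, 63.6% and 81.5% of the 65. The same order was present for H3K27ac in at least 1 WT mouse, from 8.75% of the 869 to 47.7% of the 65. The genes of the groups of 0 and 1 therefore stood apart from the other genes in H3K27ac, in WT as in DKOITD marrow.

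**Figure D3:**
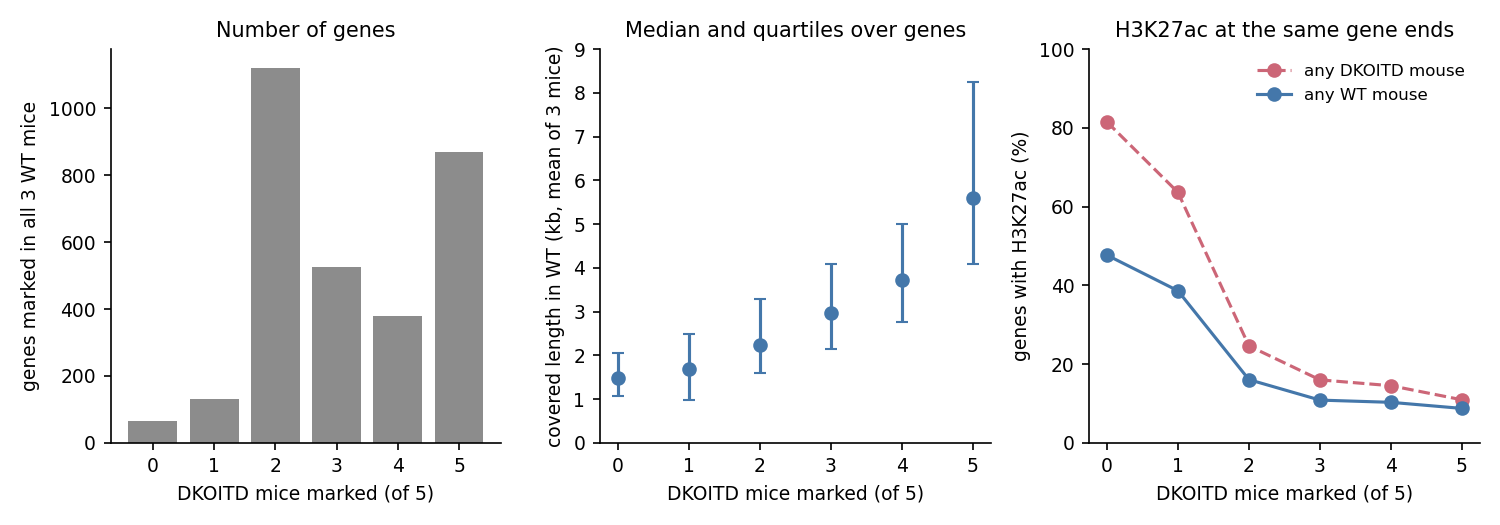
Genes marked by H3K27me3 in all 3 WT mice, by the number of DKOITD mice marked (x axis in each panel): number of genes (left), covered length in WT in kb as median with quartiles over genes (middle), and percent of genes with H3K27ac in any DKOITD or any WT mouse (right). The 65 genes marked in no DKOITD mouse had 1.49 kb and the 869 marked in all 5 had 5.61 kb. Of them, 81.5% and 10.9% had H3K27ac in a DKOITD mouse. The share of all genes with H3K27ac is not given.

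Differences in covered length were tested with limma over 5385 genes whose mean over the 8 mice was at least 0.2 kb. The test called 0 genes lower (percent called 0) and 0 higher (percent called 0) in DKOITD marrow at an adjusted p under 0.05, and the smallest adjusted p was 0.514. At an unadjusted p under 0.05 it gave 304 lower and 8 higher genes. The median difference over all genes tested was -0.68 kb, with 4179 genes lower and 1206 higher. In 228 of the 5385 genes every DKOITD mouse lay below every WT mouse (4.23%), and in 4 every DKOITD mouse lay above (0.0743%).

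A second limma fit held the log2 of each mouse's territory as a covariate, and so asked which genes differed for a mouse of that territory. It called 179 genes lower (3.32%) and 398 higher (7.39%) in DKOITD marrow. Of the 179, 147 were marked in all 3 WT mice and 71 in no DKOITD mouse, and in 143 every DKOITD mouse lay below every WT mouse. Of the 398, all had DKOITD52 and DKOITD185 above every WT mouse, but in only 4 did every DKOITD mouse lie above. The fit assumes 1 slope on territory, and WT mice lie in the gap between the small and the large DKOITD territories. In 301 of the 398 the other 3 DKOITD mice all lay below the highest WT mouse.

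The transcription factors of development, the best known targets of Polycomb, were mostly marked in all 8 mice. Of 124 homeobox and other developmental factors, 96.8% to 97.6% were marked in WT mice, 97.6% in DKOITD52 and 96.8% in DKOITD185. DKOITD48 had 83.1%, DKOITD83 82.3% and DKOITD53e 80.6%, on territories of at most 5.17 Mb. Marked in all 8 mice were 95 of the 124 (76.6%), against 869 of all 20665 genes (4.21%). These factors made up 2.86% to 3.63% of the marked genes in WT, 2.77% in DKOITD185 and 2.86% in DKOITD52, but 7.13% in DKOITD48, 6.31% in DKOITD83 and 10.0% in DKOITD53e. None of the 124 was marked in all WT and no DKOITD mice, and none in the reverse. Their median difference in covered length was -1.98 kb, against -0.68 kb over all genes tested. These differences start from unlike lengths and do not compare the share of the mark lost. The mean covered length of the 124 was 10.96 kb in WT and 8.82 kb in DKOITD mice, against 0.731 and 0.527 kb over all 20665 genes.

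The 6 genes with the greatest covered length in their windows, a measure capped by the window and so by gene length, included posterior Hox genes. Hoxd10, which patterns limbs and the posterior body, had 20.002, 18.97 and 20.002 kb covered in the WT mice and 18.3, 20.002, 16.6, 17.9 and 20.002 kb in DKOITD48, DKOITD52, DKOITD53e, DKOITD83 and DKOITD185, a difference of -1.09 kb ± 0.93 (limma SE, adjusted p = 0.82). Hoxa10, a homeobox factor of blood progenitors that shares a window with Hoxa11, had 15.1 to 19.7 kb in WT and 13.5 to 19.7 kb in DKOITD mice. Evx2, Hoxd11, Skor1 and Tbx2 were the other genes with the greatest mean covered length, and all 6 were marked in all 8 mice. At Evx2 and Hoxd11 each WT mouse, DKOITD52 and DKOITD185 filled the whole window, 18.5 and 17.5 kb, so that differences among them cannot be read there, and the other DKOITD mice had 12.4 to 15.9 and 13.9 to 16.3 kb.

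Along whole clusters, from the first to the last Hox gene, coverage was read as a share of the span. The HoxD cluster (chromosome 2, 74668225 to 74765142) was covered over 75.8% to 90.3% in WT, 97.4% in DKOITD185, 89.8% in DKOITD52, 62.2% in DKOITD48, 55.7% in DKOITD83 and 45.4% in DKOITD53e. The HoxC cluster (chromosome 15, 102921131 to 103036856) was covered over 78.2% to 97.6% in WT and in full in DKOITD52 and DKOITD185, but over 47.6%, 46.2% and 25.2% in DKOITD48, DKOITD83 and DKOITD53e. HoxB was covered over 35.0% to 51.8% in WT, and over 63.5% in DKOITD52 and 73.6% in DKOITD185, above each WT mouse. DKOITD48, DKOITD83 and DKOITD53e had 30.7%, 27.4% and 18.5%, below each WT mouse.

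Within HoxA, Hoxa2, a homeobox gene of the hindbrain, had 6.82, 5.12 and 7.74 kb in the WT mice and 0, 5.61, 1.38, 0 and 1.22 kb in DKOITD48, DKOITD52, DKOITD53e, DKOITD83 and DKOITD185. All DKOITD mice but DKOITD52 lay below every WT mouse. With territory as a covariate it was lower by 4.09 kb ± 1.02 (limma SE, adjusted p = 0.0260), and without it the adjusted p was 0.674. At the posterior end, Hoxa13 had 10.6 to 12.03 kb in WT and 8.77 to 12.03 kb in DKOITD marrow, and Hoxa11 13.6 to 13.7 kb and 10.199 to 13.7 kb. Neither posterior gene was called in either fit. In HoxB, the same fit called Hoxb1, Hoxb2 and Hoxb3 higher, with 9.90 to 12.5 kb at Hoxb1 in DKOITD52 and DKOITD185 against 3.65 to 5.87 kb in WT and 0.916 to 2.29 kb in the other 3 mice.

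Every library was also cut to its strongest peaks up to the smallest territory, 3.16 Mb. This compares ranks in peak lists of unequal length, since DKOITD53e kept all of its 1878 peaks and DKOITD185 345 of 25349, and a gene at 0 kb after the cut may be marked. On that set limma tested 1549 genes and called 12 higher (0.775%) and 4 lower (0.258%) in DKOITD marrow. Hoxd10, Hoxd11, Hoxd12, Hoxd13 and Evx2 were among the 12, with Hoxa9, Six2, Lmx1b, Nkx6-1, Lef1, Raet1e and Nrn1. Hoxd11 kept 0 kb in each WT mouse and 14.8, 17.5, 16.3, 13.9 and 17.5 kb in DKOITD48, DKOITD52, DKOITD53e, DKOITD83 and DKOITD185 (difference 15.98 kb ± 1.67, limma SE, adjusted p = 0.000459). Counting all peaks, its window was full in each WT mouse, so the 0 kb was made by the cut. The peak over Hoxd11 had a −log10 q of 4.25, 3.19 and 5.04 in WT1, WT2 and WT3, and of 7.16, 8.45, 3.94, 7.14 and 8.96 in the DKOITD mice in the order above, so that DKOITD53e lay within the WT range. That peak was 69.6, 49.3 and 55.7 kb long in the WT mice, and 6.31, 71.4, 14.1, 6.79 and 79.4 kb in the DKOITD mice. The −log10 q values thus belong to stretches of unlike length. Lower on this set were Cacnb3 and Cacng8, calcium channel subunits, Comp, a cartilage matrix gene, and Epop, a PRC2-associated factor, each with 0 to 0.459 kb in the DKOITD mice and 3.73 to 8.16 kb in WT. Counting all peaks, Cacnb3 had 5.47 to 8.81 kb in WT, 10.199 and 8.52 kb in DKOITD52 and DKOITD185 and 0 to 0.630 kb in the others. Comp had 5.01 to 7.10 kb in WT, 5.10 and 4.47 kb in DKOITD52 and DKOITD185 and 0.459 to 3.09 kb in the others.

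Genes marked in all 3 WT and no DKOITD mice numbered 65 of 20665 (0.315%), and those marked in no WT and all 5 DKOITD mice 2 (0.00968%). At 48 of the 65 no DKOITD mouse had H3K27me3 anywhere over the gene or 1 kb beyond it. The 65 were narrow and weak in WT: the −log10 q of their strongest peak, averaged over the WT mice, had a median of 2.22 and a range of 1.44 to 4.63, against a median of 4.07 for the 869 genes marked in all 8 mice. H3K27ac lay at 34 of the 65 in all 5 DKOITD mice, at 18 in all 3 WT mice, and at 12 in no DKOITD mouse. The share of all 20665 genes with H3K27ac is not given here, so these counts cannot be set against it. Of the 65, limma tested 63, and 58 had an unadjusted p under 0.05 but none an adjusted one. The fit with territory called 44 of them lower. The 65 were picked by the same peaks at the same gene ends. These counts, and the fits of single members given below, are therefore no independent support for a difference. When the libraries were cut to equal territory 24 genes met the rule, and with peaks of −log10 q of at least 5 none did. None of the 65 was among the 24. Without WT2 169 genes met the rule, and without DKOITD52 177, the 65 included. Leaving out a mouse loosens the rule, so the count could not fall.

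Interferon regulatory factors were 2 of the 65. Irf8 (chromosome 8, 120736358 to 120756694), which directs monocyte and dendritic cell development, had 2.82, 1.87 and 2.35 kb covered in the WT mice and 0 kb in each DKOITD mouse. Its difference was -2.35 kb ± 0.63 (limma SE, adjusted p = 0.514), and with territory as a covariate -2.31 kb ± 0.34 (SE, adjusted p = 0.00248). Irf5 (chromosome 6, 29526130 to 29541869), an activator of inflammatory genes, had 2.58, 2.67 and 3.03 kb in WT and 0 kb in each DKOITD mouse, with -2.76 kb ± 0.71 (SE, adjusted p = 0.514) and -2.76 kb ± 0.33 (SE, adjusted p = 0.000954). No DKOITD mouse overlapped WT at either gene, which the rule that picked these genes largely fixes. H3K27ac lay at Irf8 in 0 of 3 WT mice and 4 of 5 DKOITD and at Irf5 in 0 of 3 and 5 of 5. Irf5 shares its window with Tnpo3, a nuclear import gene. Of the 9 factors of the family, 4 were marked in each WT mouse, 0 in DKOITD48, DKOITD53e and DKOITD83, and 2 in DKOITD52 and DKOITD185. Irf4, of lymphocytes, had 1.57 and 2.67 kb in DKOITD52 and DKOITD185, 0 kb in the other DKOITD mice and 1.55 to 3.09 kb in WT. In DKOITD52 and DKOITD185, Irf5 and Irf8 were therefore bare and Irf4 had a length of the WT range.

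Signalling and cytoskeletal genes filled most of the rest. The kinase gene Map4k4 (chromosome 1, 39900902 to 40026310) had 3.67, 2.28 and 3.05 kb in WT and 0 kb in each DKOITD mouse, with a difference of -2.998 kb ± 0.77 (limma SE, adjusted p = 0.514) and -2.94 kb ± 0.39 with territory (SE, adjusted p = 0.00174). Nrp1 (chromosome 8, 128358591 to 128505476), a semaphorin and VEGF co-receptor also carried by plasmacytoid dendritic cells, had 2.10, 1.62 and 2.81 kb and 0 kb in each DKOITD mouse, with H3K27ac in 0 of 3 and 5 of 5. Emilin2, an extracellular matrix gene, had 2.49, 1.68 and 1.98 kb and 0 kb, with H3K27ac in 2 of 3 and 5 of 5. The same pattern of 0 kb in every DKOITD mouse was found at Matn3, a cartilage matrix gene whose window overlaps that of Wdr35, at Tsc22d1, Arhgap12, Tpm4 and Prag1, and at Gm46294, which lies beside Rara. Matn3 had H3K27ac in no mouse, while Map4k4, Tsc22d1, Arhgap12, Tpm4 and Gm46294 had it in all 8, WT included. Tnfrsf11a, the receptor RANK, kept 0.539 kb in DKOITD52 and 0.121 kb in DKOITD185 outside the 1 kb window. Rnf157 had the largest difference, -3.20 kb, but shares its window with Foxj1 and kept up to 2.04 kb in DKOITD mice. Smaller members from the gene lists were Kcna3, a potassium channel of lymphocytes, with 1.42 to 2.02 kb in WT, Cd38, a surface enzyme of activated lymphocytes, with 0.378 to 0.495 kb, Tspan13 with 0.333 to 0.669 kb, and Plxnd1, a semaphorin receptor, which kept 0.894, 2.09 and 1.69 kb in DKOITD48, DKOITD52 and DKOITD185 within 5 kb.

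**Figure D4:**
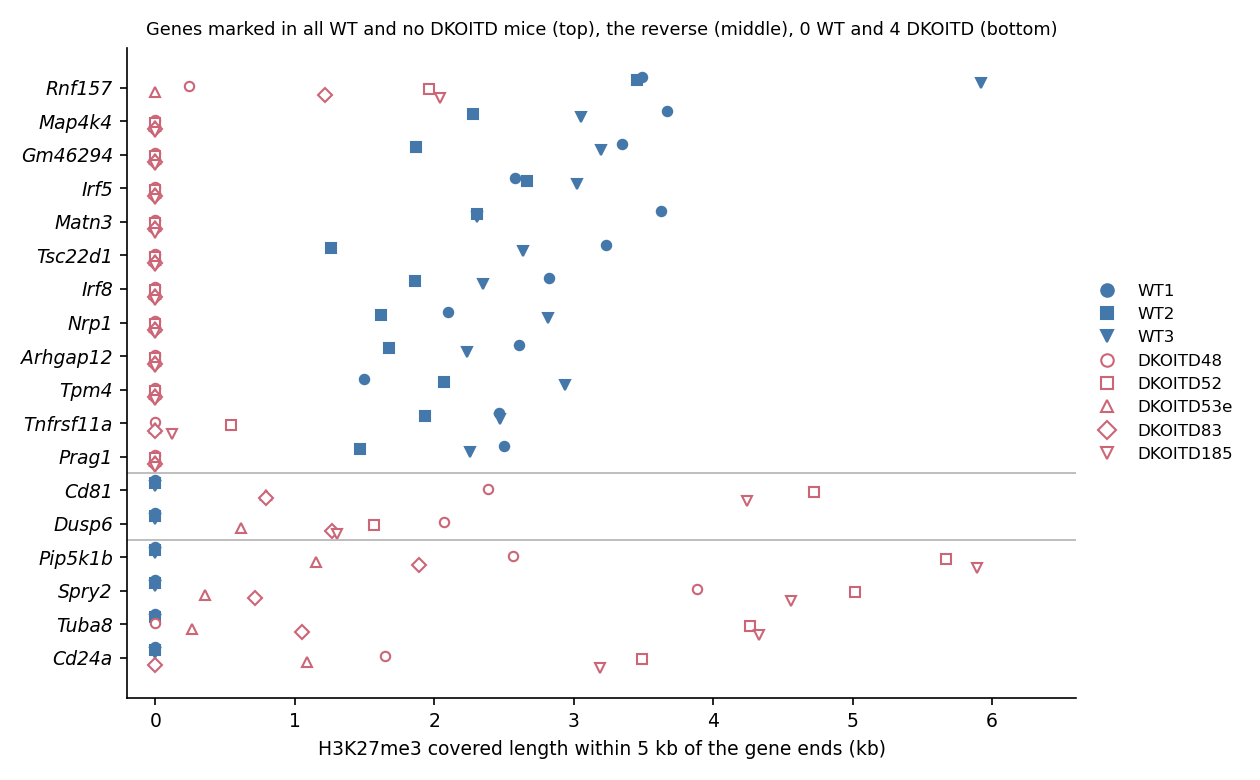
H3K27me3 covered length in kb within 5 kb of the gene ends (x axis) in each mouse (filled, WT; open, DKOITD) at the 12 genes with the largest differences among the 65 marked in all WT and no DKOITD mice (top), the 2 in the reverse case (middle) and the 4 marked in no WT and 4 DKOITD mice (bottom). At Irf5 the WT mice sit between 2.58 and 3.03 kb and all DKOITD mice at 0; at Cd81 all WT mice sit at 0 and the DKOITD mice between 0.792 and 4.72 kb.

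Next to these, the fit with territory called genes at which a remnant was left in DKOITD52 or DKOITD185. Rbm47, an RNA-binding protein gene, had 3.02, 2.81 and 3.26 kb in WT, 0.268 kb in DKOITD52 and 0 kb in the other DKOITD mice (-2.93 kb ± 0.34, limma SE, adjusted p = 0.000898). Klf4, a factor of monocytes, had 3.63, 1.96 and 4.14 kb in WT and 0, 0.379, 0, 0 and 1.05 kb in DKOITD48, DKOITD52, DKOITD53e, DKOITD83 and DKOITD185, with H3K27ac in all 8 mice. Batf3, a factor of cross-presenting dendritic cells, had 1.65 to 3.47 kb in WT, 1.83 kb in DKOITD52, 0.601 kb in DKOITD185 and 0 kb in the rest, so that DKOITD52 overlapped WT. Foxo1 was lower in that fit too, with 2.002 and 1.19 kb in DKOITD52 and DKOITD185, 0 kb in the other DKOITD mice and 2.32 to 4.49 kb in WT. Id3 was called lower, but with 7.88 and 6.58 kb DKOITD52 and DKOITD185 lay within the 6.29 to 10.204 kb of WT, and the others had 0 to 0.489 kb.

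Cd81 and Dusp6 were the genes with H3K27me3 in all 5 DKOITD and no WT mice. They were picked by the same peaks, so their fits are no independent support for a difference. Neither met that rule with peaks of −log10 q of at least 5, at equal territory, or with 1 kb covered within 5 kb. Cd81 (chromosome 7, 143052750 to 143067930), a tetraspanin of the B-cell co-receptor inside an imprinted region, had 0 kb in each WT mouse and 2.39, 4.72, 0.796, 0.792 and 4.24 kb in DKOITD48, DKOITD52, DKOITD53e, DKOITD83 and DKOITD185. The difference was 2.59 kb ± 1.14 (limma SE, adjusted p = 0.805), and with territory as a covariate 3.54 kb ± 0.50 (SE, adjusted p = 0.00237). The window is shared with Tssc4, and H3K27ac lay at it in all 8 mice. Dusp6 (chromosome 10, 99263231 to 99267489), a phosphatase that dampens ERK signalling, had 0 kb in WT and 2.07, 1.57, 0.612, 1.27 and 1.30 kb, with H3K27ac in 3 of 3 WT mice and 2 of 5 DKOITD. Its length was of the same order in small and large libraries, and it was called higher with territory as a covariate (1.44 kb ± 0.38, SE, adjusted p = 0.0318) and not without (adjusted p = 0.82).

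Genes with no mark in WT and the mark in 4 DKOITD mice were Pip5k1b, Spry2, Tuba8 and Cd24a. Pip5k1b, a lipid kinase gene, had 2.56, 5.67, 1.15, 1.89 and 5.90 kb in DKOITD48, DKOITD52, DKOITD53e, DKOITD83 and DKOITD185 and 0 kb in each WT mouse, so the groups did not overlap. Spry2, a second inhibitor of receptor kinase signalling, had 3.89, 5.02, 0.357, 0.716 and 4.56 kb and 0 kb in WT. Cd24a, a surface protein of early B cells and other immature blood cells, had 1.65, 3.49, 1.09, 0 and 3.19 kb. H3K27ac lay at all 4 in each WT mouse, and in 2, 2, 0 and 3 DKOITD mice at Pip5k1b, Spry2, Tuba8 and Cd24a. All except Tuba8 had the mark in DKOITD48, a mouse of small territory.

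Most of the other new genes belonged to DKOITD52 and DKOITD185. Of genes marked in no WT mouse, 376 were marked in DKOITD52 and 546 in DKOITD185, against 22, 9 and 11 in DKOITD48, DKOITD53e and DKOITD83. Against the other WT mice, 1 reference mouse fewer, WT1 had 470, WT3 323 and WT2 54. Both DKOITD52 and DKOITD185 were marked at 175 of the 179 genes with no WT and 2 DKOITD mice. The genes with the smallest p among the 398 were H2-Q1, Pip5k1b, Muc20, Cttn, Mmp9, Fam71f1, Tal1, Cd2, Slc30a3 and Cfap300. Cd2, a T-cell adhesion receptor, had 12.3 kb in DKOITD52 and 11.96 kb in DKOITD185, 0.255 kb in DKOITD48, 0 kb in DKOITD53e and DKOITD83, and 2.76, 0 and 1.11 kb in WT. Mmp9, a protease of neutrophil granules, had 17.8 and 16.9 kb in DKOITD52 and DKOITD185, 1.83 to 4.29 kb in the other DKOITD mice and 2.31 to 6.86 kb in WT. Tal1, a master regulator of blood stem and erythroid cells, had 9.91 and 9.86 kb in DKOITD52 and DKOITD185, 3.14, 2.60 and 5.22 kb in DKOITD48, DKOITD53e and DKOITD83, and 2.86, 1.43 and 1.30 kb in WT, with H3K27ac in 3 of 3 WT mice and 1 of 5 DKOITD. The difference at Tal1 with territory as a covariate was 6.23 kb ± 0.67 (limma SE, adjusted p = 0.000427), and without it adjusted p was 0.82. Tal1 therefore had more kb than the highest WT mouse in 4 of 5 DKOITD mice, among them DKOITD48 and DKOITD83 on territories below any WT mouse.

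Gene lists were then read by mouse. Across all genes 16.0% to 20.5% were marked in WT, 20.5% in DKOITD52, 21.0% in DKOITD185 and 4.83% to 7.82% in the other DKOITD mice. No list had a member called by limma without the covariate. Of the 18 Wnt ligands, secreted signals of development, 94.4% to 100% were marked in WT. DKOITD52 and DKOITD185 each had 94.4% of them and the other 3 mice 66.7% to 77.8%. With territory 4 of the 18, all tested, were lower (Wnt1, Wnt8b, Wnt10b and Wnt10a) and 1 higher (Wnt3a), beside 3.32% and 7.39% of all genes tested in that fit. Wnt10a had 13.5 to 17.3 kb in WT, 16.2 and 16.0 kb in DKOITD52 and DKOITD185, and 1.43 to 2.58 kb in the others. The shares of FGF ligands were 72.2% to 88.9% in WT, 72.2% and 77.8% in DKOITD52 and DKOITD185, and 38.9% to 50% in the others. BMP and TGF-beta ligands had 61.9% to 71.4% in WT, 66.7% and 61.9% in DKOITD52 and DKOITD185, and 28.6% to 52.4% in the others. Semaphorins, plexins and neuropilins, guidance molecules with a role in immune cells, went from 51.7% to 75.9% in WT to 69.0% in DKOITD52 and DKOITD185 and 13.8% to 24.1% in the others, with 3 of the 22 tested lower in the fit with territory (Nrp1, Sema4c and Plxnb2), beside 3.32% of all genes tested.

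**Figure D5:**
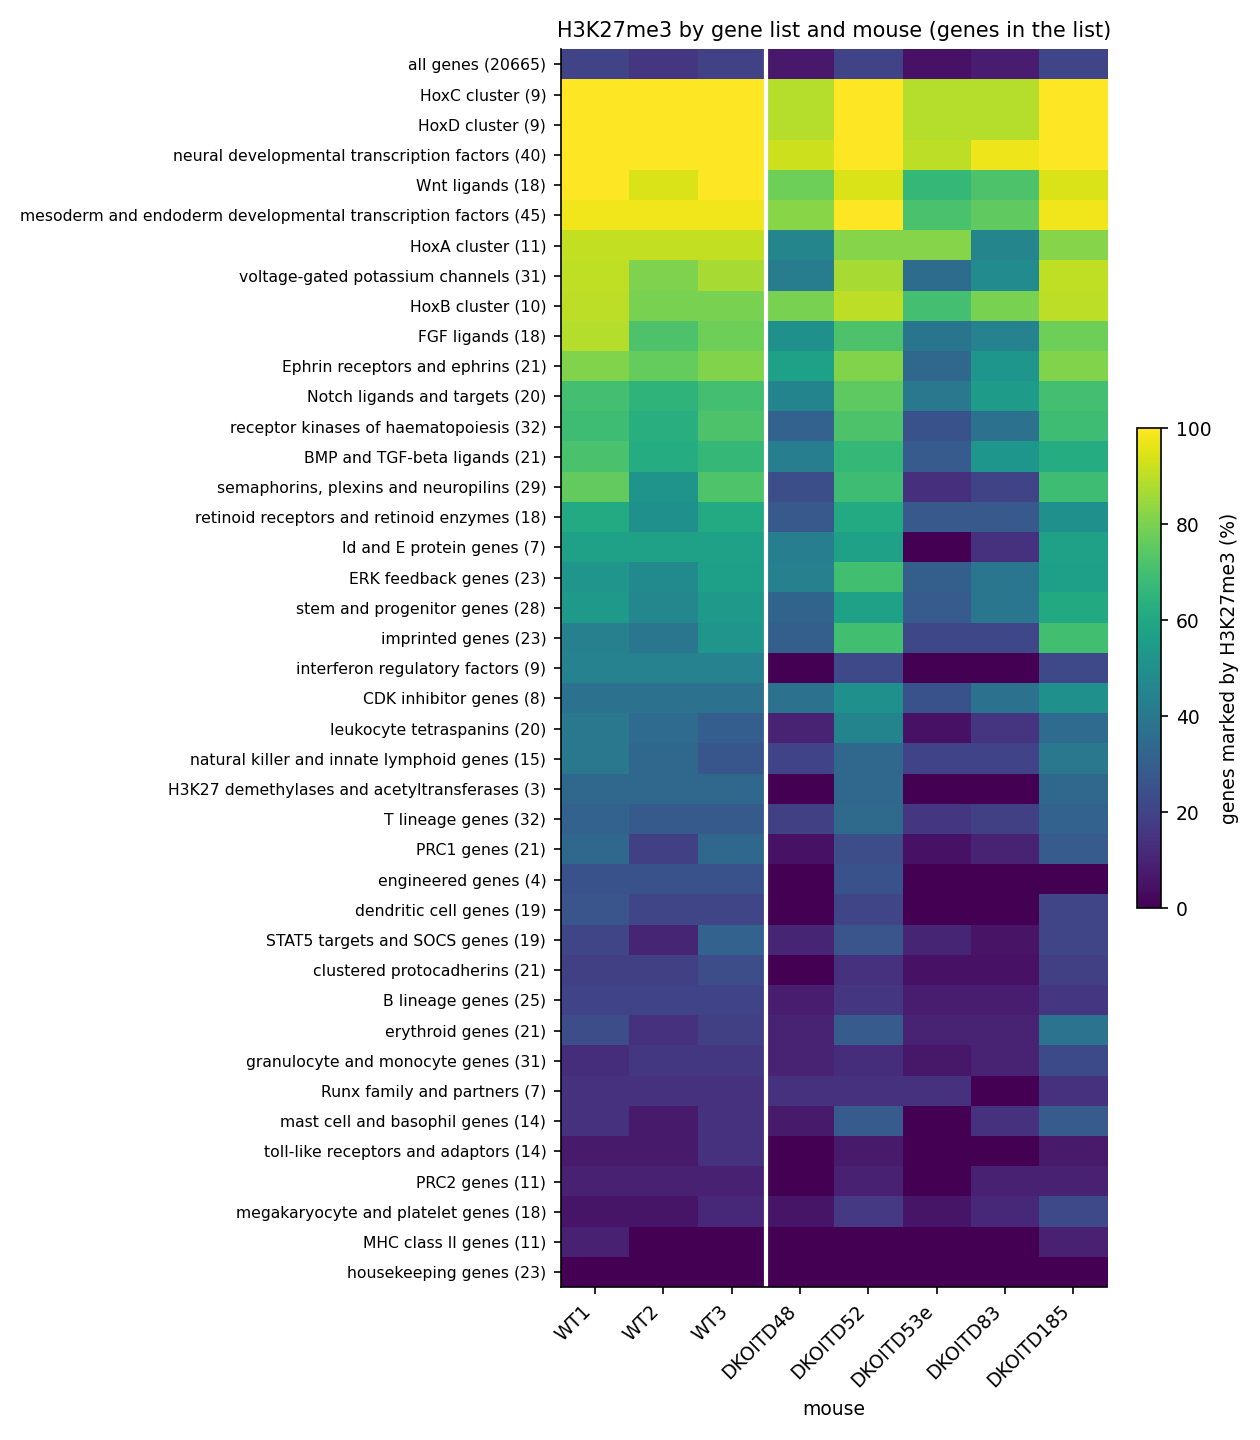
Percent of genes marked by H3K27me3 (colour) for all autosomal protein-coding genes (top row) and 40 gene lists (rows, with the number of genes, ordered by the WT mean) in each mouse (columns; the white line parts WT from DKOITD). Neural transcription factors are at 90% or more in every column, housekeeping genes are at 0 in every column, and interferon regulatory factors go from 44.4% in each WT mouse to 0 in DKOITD48, DKOITD53e and DKOITD83.

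Genes of blood lineages were marked less often than developmental genes and gave no common direction. Of these lists joined, the 194 genes of the blood lineage lists were marked at 22.7% to 26.3% in WT, 27.3% in DKOITD52, 30.9% in DKOITD185 and 11.9% to 14.4% in the other 3. Of 21 erythroid genes, 14.3% to 23.8% were marked in WT, 28.6% in DKOITD52 and 38.1% in DKOITD185, and 9.52% in each of the other mice. Car2, the red cell carbonic anhydrase, had 1.44 and 1.15 kb in DKOITD52 and DKOITD185 and 0 kb in the other 6 mice, with H3K27ac in 3 of 3 WT mice and 0 of 5 DKOITD. Kit had 1.58, 0.324 and 4.14 kb in DKOITD52, DKOITD83 and DKOITD185 and 0 kb in WT, the marrow that had been enriched on its product. S100a8, of neutrophils, had 1.84 and 3.06 kb in DKOITD52 and DKOITD185 and 0 kb elsewhere, with H3K27ac in 3 of 3 WT mice and 0 of 5 DKOITD. Cd3e, of the T-cell receptor, had 1.34 and 4.59 kb there, at most 0.235 kb in WT, and H3K27ac in no mouse. Kit, Car2, S100a8 and Cd3e were all called higher with territory and not without it. Of 19 dendritic cell genes 4 or 5 were marked in each WT mouse, 4 in DKOITD52 and in DKOITD185, and 0 in the other 3 mice. MHC class II genes were marked at 1 of 11 in WT1 and in DKOITD185 and at 0 in the other mice.

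The list of imprinted genes, which are expressed from a single parental allele, stood higher in DKOITD52 and DKOITD185 than in WT. Of 23 genes, 69.6% were marked in each of the pair, 39.1% to 52.2% in WT and 21.7% to 30.4% in the other DKOITD mice. With territory as a covariate 5 of the 16 tested were higher, namely Cd81, Igf2r, Sgce, Peg10 and Ascl2, beside 7.39% of all genes tested. Sgce and Peg10 share their window, which had 2.83 and 4.28 kb in DKOITD52 and DKOITD185 and 0 kb in the other 6 mice. Igf2r, a receptor that clears IGF2, had 4.96 and 7.85 kb there, 1.80 kb in DKOITD48, 0 kb in DKOITD53e and DKOITD83, and 0 to 1.65 kb in WT. At Ascl2 the pair had 10.7 and 10.4 kb and the WT mice 3.58 to 5.18 kb. Among feedback inhibitors of ERK signalling, 47.8% to 56.5% of 23 genes were marked in WT, 69.6% in DKOITD52, 56.5% in DKOITD185 and 30.4% to 43.5% in the others, with 3 of the 16 tested higher (Spry2, Dusp6 and Spry1) and 1 lower (Spred3) with territory, beside 7.39% and 3.32% of all genes tested.

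Genes of the machinery of the mark itself were also read by mouse. Across all genes 16.0% to 20.5% were marked in WT, 20.5% in DKOITD52 and 21.0% in DKOITD185. The other DKOITD mice had 4.83% to 7.82%. PRC2 genes were marked at 9.09% in each WT mouse. Of 11 autosomal PRC2 genes only Epop was marked in WT, with 6.80, 4.95 and 8.16 kb, and it had 0, 8.52, 0, 1.78 and 4.54 kb in DKOITD48, DKOITD52, DKOITD53e, DKOITD83 and DKOITD185. Of 21 PRC1 genes 19.05% to 33.3% were marked in WT, 23.8% and 28.6% in DKOITD52 and DKOITD185, and 4.76% to 9.52% in the others. Cbx8, an H3K27me3 reader, had 7.76 to 8.64 kb in WT and 6.39 to 8.95 kb in DKOITD mice and was marked in all 8. Bmi1, a core PRC1 subunit, had 6.52 to 7.26 kb in WT, 7.14 and 7.18 kb in DKOITD52 and DKOITD185, and 0.845 to 2.65 kb in the others. Kdm6b, the autosomal demethylase, had 1.19 to 1.62 kb in WT, 1.72 and 0.309 kb in DKOITD52 and DKOITD185 and 0 kb in the others. The tumour suppressor Cdkn2a, a classic PRC2 target, had 11.4 to 17.5 kb in WT, 17.5 kb in DKOITD52 and DKOITD185, and 5.25 to 10.18 kb in the rest, and was marked in all 8 mice. The windows of Bmi1 and Kdm6b are shared with other genes, Commd3 and Dnah2 among them. None of Epop, Cbx8, Bmi1, Kdm6b or Cdkn2a was called in either fit over all peaks.

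At the engineered loci Ezh2, Runx1 and Rag1 no mouse had H3K27me3 within 5 kb of a gene end. Ezh2 and Runx1 had H3K27ac in all 8 mice, and deletion of a floxed exon cannot be read from peaks. Flt3 (chromosome 5, 147330741 to 147400489) had 3.25, 1.36 and 1.99 kb in WT and 2.17 kb in DKOITD52, and 0 kb in the other 4 DKOITD mice. The difference of -1.77 kb ± 0.82 (limma SE) had an adjusted p of 0.82, and DKOITD52 overlapped WT. H3K27ac lay at Flt3 in 2 of 3 WT mice and 5 of 5 DKOITD.

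Regions were compared without reference to genes. The merged peaks of all 8 mice made 38360 autosomal regions, and a mouse held a region when it covered at least 10% of it. All 8 mice held 799 regions, 2.08% of them, with 9.36 Mb, a median length of 8.498 kb and a gene end in or within 1 kb of 86.6%. A single mouse held 26796 regions, 69.9%, with a median of 0.362 kb and a gene end near 5.70%. All WT and no DKOITD mice held 123 regions (0.321%), and all DKOITD and no WT mice 3 (0.00782%). The longest of the 123 were at Cd40 (chromosome 2, 165053960 to 165059264), at Rara on chromosome 11 (98960150 to 98964467, and 98935432 to 98939551 within 1 kb of both Rara and Gm46294), on chromosome 8 at 45107648 to 45111598 with no gene within 1 kb, and at Map4k4. The Cd40 region was covered over 3.86% in DKOITD52 and 5.47% in DKOITD185, under the limit of 10%, but Cd40 itself, a costimulatory receptor gene, had 4.43 and 4.42 kb within 5 kb of its ends in these mice, within the 3.14 to 8.93 kb of WT. In addition, DKOITD52 kept 9.09% of the region on chromosome 8. The 3 in the reverse case were those at Pip5k1b, Cd81 and Dusp6. The 123 became 450 without WT2, 207 without WT3 and 278 without DKOITD52, and with peaks of −log10 q of at least 5 there were none. Leaving out a mouse loosens the rule, so it could not lower the count.

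The share of territory on each chromosome was compared last. Group means differed most at chromosome 7, with 7.45% to 7.57% in WT, 7.47% in DKOITD52 and 7.18% in DKOITD185. DKOITD48, DKOITD53e and DKOITD83 had 6.08%, 5.09% and 6.32% there (exact permutation p = 0.0714, adjusted p = 0.339). Chromosome 2 held 9.61% to 9.89% in WT, 9.47% in DKOITD52, 9.74% in DKOITD185 and 10.8% to 11.8% in the others. Chromosome 11 held 8.44% to 8.74% of territory in WT and 8.94% to 9.27% in DKOITD mice. Chromosome 10 held 3.54% to 3.91% and 2.94% to 3.41%, and chromosome 18 2.59% to 2.68% and 1.92% to 2.48%. Of the 19 chromosomes, only chromosomes 10, 11 and 18 had no overlap between the groups. Each had the smallest possible exact permutation p of 0.0357, with an adjusted p of 0.226.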

How the data were processed

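Chromatin was immunoprecipitated for H3K27me3 from marrow cells of each mouse, and Drosophila chromatin was added but its reads were not used, per the labels' protocols, so no absolute level can be had. Bowtie2 2.2.5, MACS2 2.0.10 and build mm10 are named, per the submitters' processing notes. Broad peaks were called per library on paired fragments by MACS 2.0.10.20131216 with a q limit of 0.05 and at most 1 fragment at a position, against 1 input per genotype (that of WT1 or DKOITD48), per the file headers. The deposited pileup is the fragment coverage signal over a peak. The authors' files also give −log10 p-values and q-values and a fold enrichment, the ratio of that signal to background. These values are the authors', and they ranked, filtered or described peaks. The −log10 q of peaks was also read across libraries, which differ in depth and, between genotypes, in input. Pileup, peak length and fragment size gave the estimated share of fragments in peaks. The H3K27ac lists of the same mice were made in the same way and were used for presence only.

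Peaks within a library neither overlapped nor touched, so each is a domain. Genes came from a RefSeq table of GRCm38.p6, the assembly behind mm10, without strand. Windows at gene starts, as first planned, were therefore replaced by windows at both gene ends. The 40 lists held 781 symbols, of which 759 were autosomal and protein-coding. The members and lists were chosen with earlier results of these data known. Groups were compared by exact permutation tests over mice and by limma 3.58.1 in R 4.3.3 with a trend (covered kb, linear scale, Benjamini-Hochberg over all genes tested). Scripts were tested on simulated data. Named genes were those called by limma (up to 10 per direction by p; as none was, this was applied, after the values were seen, to the fit with territory), the 12 largest differences among genes switching presence in all mice, genes in 0 WT and 4 DKOITD mice, the 6 longest, the engineered genes, list members that switched or were called, and up to 4 members per list with the largest differences; Car2, S100a8, Cd3e, Hoxa11, Hoxa13 and other list members were also named after their values were seen. Alternatives were stricter peaks, equal territory, merged gaps, other windows and limits, a log2 scale, territory as a covariate, all chromosomes and leaving out mice. Sex chromosomes were left out of the comparisons. A peak's absence is not absence of the mark.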

Additional observations from a re-analysis of the deposited data

Results flagged for a closer look

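Within the 5 DKOITD mice, 5 of 74 values checked had 1 mouse farther from the others than the 95% limit of Dixon's test allows; chance flags about 1 in 20 groups, so about this many would be met by chance. MHC class II genes were marked at 9.09% (1 of 11) in DKOITD185 and at 0 in the other 4. Of the 7 genes of the Runx family and its partners, DKOITD83 had 0% marked and the other 4 mice each 1, the fusion partner Runx1t1. Of the 4 engineered genes, 25% were marked in DKOITD52 and 0 in the others. That gene was Flt3, with 2.17 kb covered in DKOITD52 and 0 kb in the other DKOITD mice. Tnfrsf11a had 0.539 kb in DKOITD52, 0.121 kb in DKOITD185 and 0 kb in the rest. The causes were not tested.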

How the results depend on the processing

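Of the values recomputed under alternatives, 27 counts moved by more than 1.5 times and 21 values changed sign. Another 2 passed the threshold without a change of sign. The remaining 99 kept their direction and their side of the threshold (counts within 1.5 times). With peaks of −log10 q of at least 5, DKOITD minus WT turned to 3.87 Mb of territory, 467 domains and 7.07 points of shared WT territory held, the length-weighted median differed by 2.91 kb and the share in domains of 5 kb or more by 18.0 points (both now at the smallest p), lost and gained genes numbered 0 and 16, and lost and gained regions 0 and 16. At equal territory the values were 184.6 domains and -2.86 points near a gene end, the latter at the smallest possible exact permutation p of 0.0357. There were 4 lower and 12 higher genes, 24 lost and 21 gained genes, and 28 lost and 17 gained regions. Territory as a covariate gave 179 lower and 398 higher genes. Without DKOITD48, DKOITD53e and DKOITD83, chosen by their territory and so no test, the differences were 15.0 Mb, 9095 domains, -11.9 points near a gene end and 8.996 points of shared territory, with 2 lower, 79 higher and 194 gained genes and 1932 gained regions. Gained genes were 1 with 1 kb covered within 5 kb and 4 over gene bodies, and gained regions 0 when held at 50%. Neither Cd81 nor Dusp6 was among the gained genes with the stricter peaks, at equal territory or with 1 kb covered within 5 kb.

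Leaving out each mouse in turn gave differences of -9.23 to 0.00777 Mb, -5484 to 417.3 domains, -0.19 to 0.21 kb in length-weighted median, 2.01 to 6.26 points in domains of 5 kb or more, -1.27 to 5.59 points near a gene end, and -37.2 to -19.6 points of shared territory. Genes lower and higher stayed at 0. Lost genes ranged from 65 to 177 (169 without WT2, 177 without DKOITD52) and gained genes from 2 to 4 (4 without DKOITD83). Lost regions ranged from 123 to 450 (without WT2 450, WT3 207, DKOITD52 278) and gained regions from 3 to 8 (8 without DKOITD53e, 5 without DKOITD83). The rule of presence loosens with each mouse left out, so these counts of lost and gained genes and regions could not fall. The share of territory held was not formed with 2 WT mice, and equal territory has no territory to compare. The causes were not tested. No paired analysis was possible because the WT mice are numbered 1 to 3 and the DKOITD mice by other numbers, with no number in common. Depth was 2766339 to 6411696 fragments, and its effect on the domains called was not tested.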
